A study of Homo sapiens with 6 samples.

Results

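The desmosome genes described here are DSG2, DSG3, DSC2 and DSC3, which encode cadherins, JUP, PKP1, PKP2 and PKP3, which encode armadillo proteins, DSP, which encodes the plakin desmoplakin, and PERP, which encodes a tetraspan membrane protein. They were chosen by name as the components of the desmosome, and every probe annotated to them was used. The 10 genes had 13 probes, out of 19155 genes with 24565 named probes among 53103 gene probes. RNA came from HSC3, an established line of human tongue squamous carcinoma cells, and was labelled with Cy5 and hybridized to single-colour CodeLink arrays. Of the 6 arrays, 1 was labelled control and the others carried the label of an siRNA against LEMD1, MIA, MIA2, TANGO (a name of MIA3) or MATE2 (a name of SLC47A2). The same line was used throughout, and an siRNA is a short RNA that directs the breakdown of its target transcript. The control cells were untreated by the array methods and received a control siRNA by the deposited design. Each condition had 1 array, so a ratio has no replicate error and no test was possible. In RNA of a whole culture, more cells that express a gene and more RNA per cell cannot be told apart.

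Signals are spot intensities above local background, quantile normalized over the 6 arrays, and a spot was used where the scanner software flagged it as good. The targeted genes were read first, as a check of the labels. Where a target was near background, the fold is counted from the higher of its own signal and the lowest good signal of that array. It is given as a lower bound. The normalized signal of LEMD1 was 277.9 on control, and its spot on the LEMD1-labelled array was near background, at least 10.1-fold lower. It was also near background on the MIA2-labelled array, at least 6.57-fold lower than control. On the TANGO- and MATE2-labelled arrays LEMD1 was 11.5-fold and 3.64-fold above control. SLC47A2, the MATE2 gene, was 19.0-fold below control on the MATE2-labelled array and 25.6-fold below it on the TANGO-labelled array. MIA was near background on all 6 arrays, the good probe of MIA2 had a log2 ratio of 0.12 on its own array, and MIA3 had no named probe. The MIA, MIA2 and TANGO labels are therefore not borne out by a lower target, and the arrays are named below by their labels alone. With quantile normalization fitted without the TANGO- and MATE2-labelled arrays, the numbers of desmosome probes changed by 2-fold on the LEMD1-, MIA- and MIA2-labelled arrays were the same. The TANGO- and MATE2-labelled arrays were each normalized with control alone in that setting, and their numbers were also the same.

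Desmosomes are button-like junctions that hold epithelial cells together and anchor their keratin filaments. The desmogleins and desmocollins bind those of the next cell outside the membrane. Plakoglobin, encoded by JUP, and the plakophilins bind the cadherin tails inside, and desmoplakin ties this plaque to the keratins. In the epidermis, a stratified epithelium, DSG3 and DSC3 mark the basal and lower layers. DSG2, DSC2 and PKP2 are also used by simple epithelia, and PKP1 and PKP3 serve the stratified layers.

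Across the 6 arrays, the desmosomal cadherins DSG3, DSC2 and DSC3 were highest on the TANGO-labelled array and next highest, except for DSC3 and 1 probe of DSC2, on the MATE2-labelled array. PKP2 was the opposite, with its highest signal on the control array and its lowest on the MATE2-labelled array. DSP and PERP were above control on the TANGO-labelled array, and JUP and PKP1 were within 2-fold of control on all arrays. A comparison counted the probes with a good spot on each of its arrays, and changed means at least 2-fold higher or lower, so that the log2 ratio is 1 or more, or -1 or less. Of the 78 desmosome spots, 76 were good, and 11 of the 13 probes were good on all 6 arrays. Among these 11 probes, 7 were highest on the TANGO-labelled array, against 25.2% of all probes good on 6 arrays. The lowest signal fell on the MIA-, MIA2- or MATE2-labelled array for 3 probes each and on the control array for 2. The local background of the desmosome spots was 60 to 77 intensity units, and 27545 to 30628 gene probes were good per array.

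**Figure D1:**
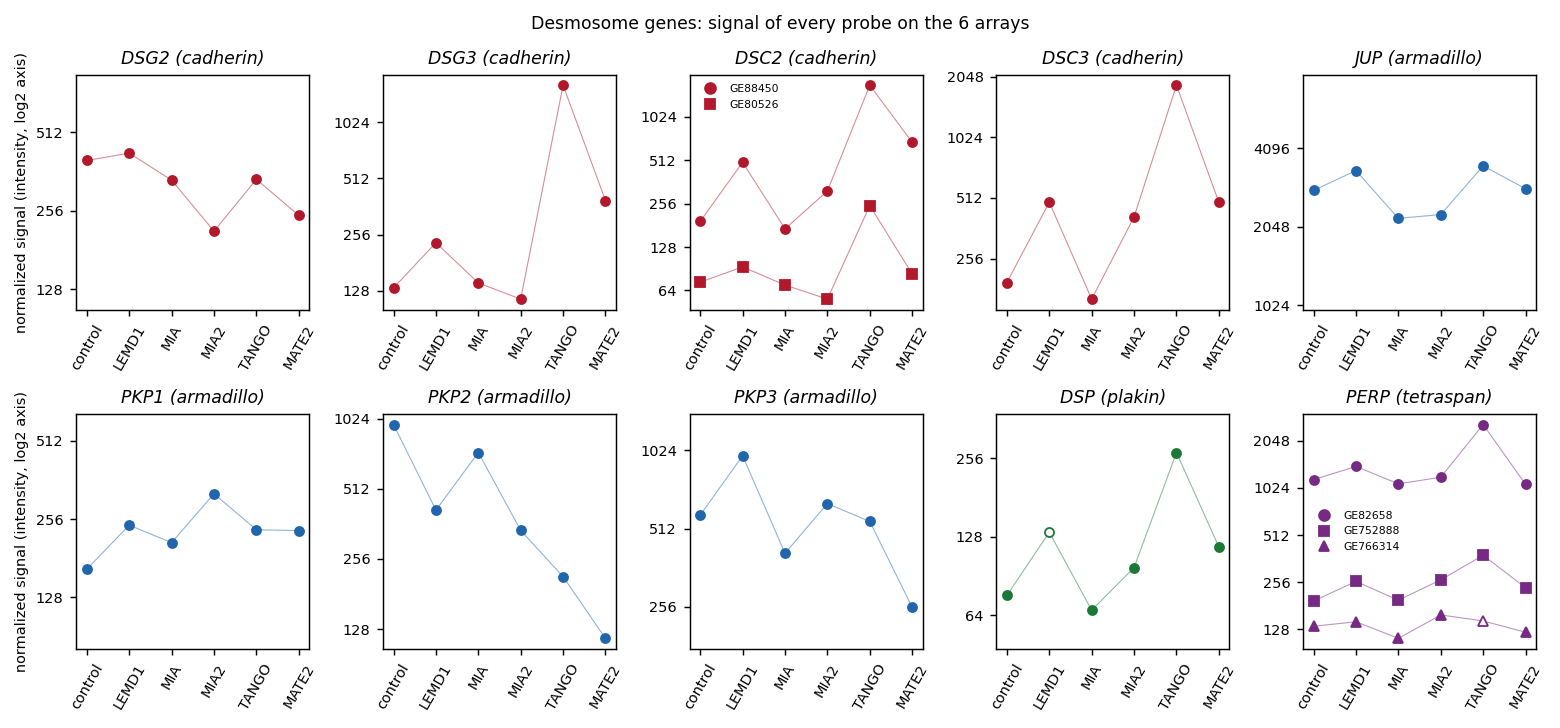
Normalized signal (y axis, intensity on a log2 axis) of every desmosome probe on the 6 arrays (x axis), with 1 panel per gene and 1 point per array. Open symbols are spots that the scanner did not flag as good, and the lines join the points of a probe and carry no order in time or dose; DSG3 stands at 1613 on the TANGO-labelled array and at 115.6 to 389.3 on the others, and PKP2 falls from 967.6 on control to 116.7 on the MATE2-labelled array.

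On the TANGO-labelled array, 6 of 12 desmosome probes were higher and 1 was lower, where 4.58% of all probes were higher and 6.43% lower. The median log2 ratio of the desmosome probes was 1.07, against 0.03 for all probes with a robust SD of 0.54. On the MATE2-labelled array, 3 of 13 were higher and 2 lower, where 5.05% and 7.55% of all probes were, and the median was 0.19 against 0.04. The LEMD1-labelled array had 2 of 12 probes higher and 1 lower, where the background was 1.56% and 2.57%, and a median of 0.38 against 0.01. On the MIA2-labelled array 1 of 13 was higher and 1 lower, with 2.88% and 3.74% of all probes so called and a median of 0.15 against 0.05. With each array scaled to its median, 2 desmosome probes were higher there, and the share of higher among all changed probes moved from 43.5% to 56.5%. The MIA-labelled array had no desmosome probe changed of 13, where 0.588% of all probes were higher and 0.318% lower, and a median of -0.19 against -0.01. Over all comparisons 8 probes of 7 genes were changed at least once. Without the TANGO-labelled array these were 5 probes of DSC2, DSC3, DSG3, PKP2 and PKP3, and without that and the MATE2-labelled array they were 3 probes, of DSC2, DSC3 and PKP2. The matching share over all probes was not computed, so these counts have no background to be read against. All comparisons share the control array, so their ratios are not independent of each other.

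**Figure D2:**
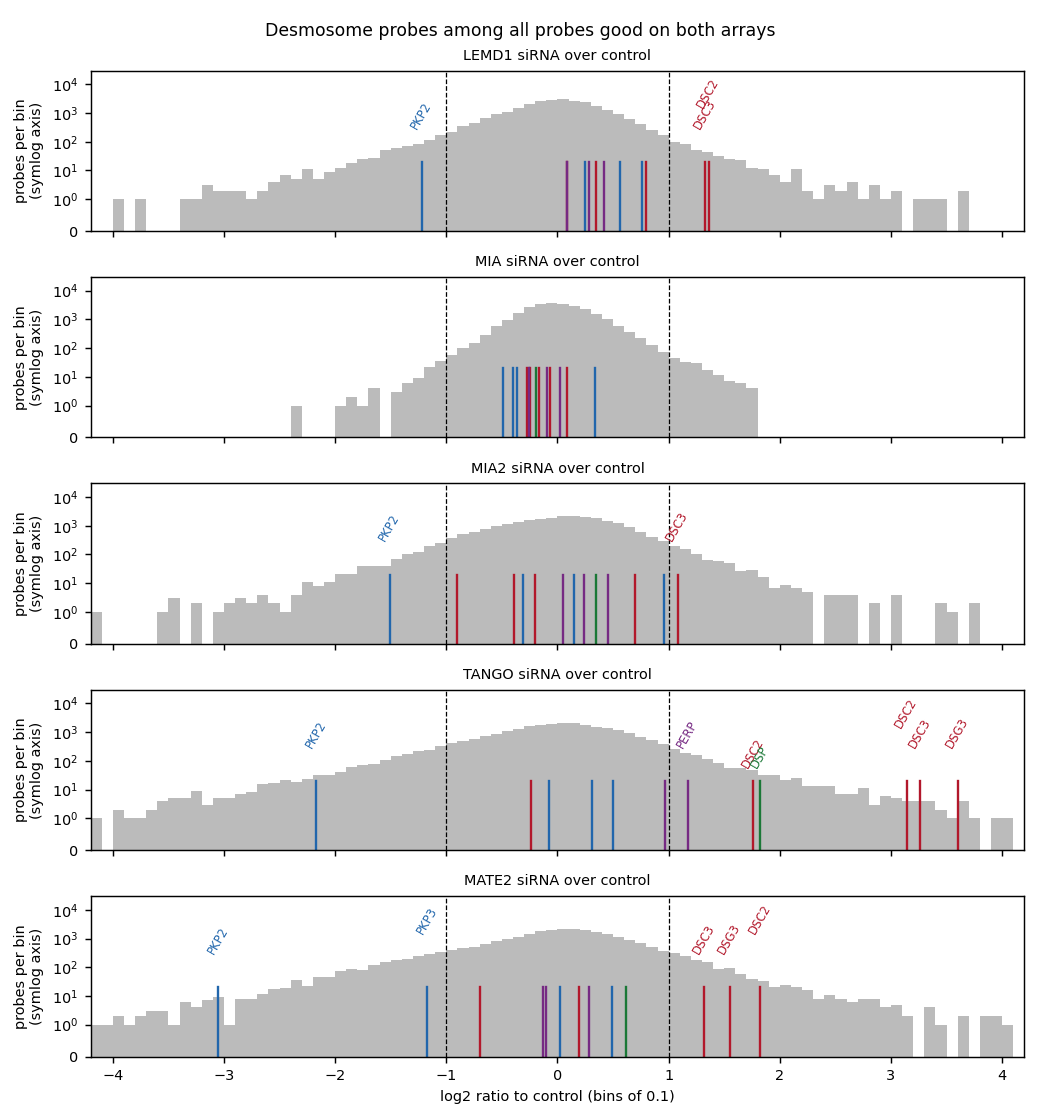
Number of probes (y axis, symmetrical log scale) by log2 ratio to control (x axis, bins of 0.1) for each siRNA array, with the desmosome probes as coloured lines (red cadherins, blue armadillo proteins, green DSP, purple PERP) and dashed lines at 2-fold. Probes beyond the axis limits are not drawn; DSG3, DSC2 and DSC3 lie near the right end on the TANGO-labelled array at 3.60, 3.14 and 3.26, and no desmosome probe passes 2-fold on the MIA-labelled array.

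The cadherin genes lie in a single cluster on chromosome 18 (GRCh38.p14), from 30989365 to 31549008, which spans 559.6 kb and holds 7 protein-coding genes in the order DSC3, DSC2, DSC1, DSG1, DSG4, DSG3 and DSG2. The 250 bases before the annotated start of 4 of them are shown here because DSG3, DSC2 and DSC3 were the desmosome genes with the highest ratios, while DSG2, their neighbour, did not share them. The other genes lie on other chromosomes, DSP at chr6:7541671-7586714, PERP at chr6:138088505-138107419, JUP at chr17:41754609-41786711, PKP1 at chr1:201283506-201332989, PKP2 at chr12:32790755-32896777 and PKP3 at chr11:392596-404908. The sequences are those of RefSeq on GRCh38.p14, read 5′ to 3′ on the strand of the gene. The promoter of DSG3 is chr18:31447491-31447740 on the plus strand, that of DSC2, the first of 2 entries, chr18:31102422-31102671 and that of DSC3 chr18:31042743-31042992, both on the minus strand, and that of DSG2 chr18:31497927-31498176 on the plus strand. Capitals mark 3 motifs, each searched on both strands, so that some appear as the reverse complement. The E2 box was searched as CAGGTG. The GC box was searched as GGGCGG. The letters of the third motif, known as the CACCC box after its core, were CCACCC.
DSG3: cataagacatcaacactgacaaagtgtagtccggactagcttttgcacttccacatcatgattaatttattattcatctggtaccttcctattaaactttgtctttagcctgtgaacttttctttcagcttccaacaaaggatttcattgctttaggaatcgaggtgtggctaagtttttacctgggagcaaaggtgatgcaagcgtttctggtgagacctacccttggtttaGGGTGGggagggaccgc
DSC2: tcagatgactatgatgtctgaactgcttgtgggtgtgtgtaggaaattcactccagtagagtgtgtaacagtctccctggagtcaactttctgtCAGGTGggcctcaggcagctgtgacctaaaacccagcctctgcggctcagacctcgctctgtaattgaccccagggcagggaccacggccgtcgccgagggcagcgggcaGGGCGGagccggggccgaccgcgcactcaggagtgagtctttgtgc
DSC3: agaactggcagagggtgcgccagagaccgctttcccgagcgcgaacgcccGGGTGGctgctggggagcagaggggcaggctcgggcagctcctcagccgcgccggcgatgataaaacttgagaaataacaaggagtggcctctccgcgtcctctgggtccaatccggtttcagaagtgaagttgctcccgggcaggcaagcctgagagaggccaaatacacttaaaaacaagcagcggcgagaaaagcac
DSG2: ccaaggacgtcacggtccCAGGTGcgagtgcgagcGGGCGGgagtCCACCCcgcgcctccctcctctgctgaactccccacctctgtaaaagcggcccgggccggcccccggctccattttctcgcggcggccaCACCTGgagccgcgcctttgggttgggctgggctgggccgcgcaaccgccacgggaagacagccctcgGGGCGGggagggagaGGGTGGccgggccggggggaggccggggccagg

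The upstream region of DSG3 had a GC content of 42.8%, against 59.6% for DSC2, 60.4% for DSC3 and 75.2% for DSG2. Over all 35116 promoters of the table the median was 58%, and DSG2 lay at the 90th percentile of 75.2%. The DSG3 stretch held 1 CACCC box, 17 bases before the start. The DSC2 stretch held an E2 box at 156 bases and a GC box at 46 bases before the start, and the DSC3 stretch a CACCC box at 200 bases. The second DSC2 entry, which is not printed, had a GC content of 66.8%. It held GC boxes at 118 and 36 bases, a CACCC box at 19 bases and no E2 box. The DSG2 stretch held 2 of each: E2 boxes at 232 and 116 bases, GC boxes at 215 and 48 bases and CACCC boxes at 205 and 33 bases. These motifs are common, since an E2 box was found in 17.5% of all promoters, a CACCC box in 31.3% and a GC box in 42.6%. An AP-1 site (TGANTCA, 6.57% of promoters), a Grainyhead site (AACNGGTT, 1.49%), a TATA box (TATAAA, 10.7%) and a C/EBP site (TTGCNNAA, 9.05%) were searched as well, and their letters were absent from all 4 stretches. The matches describe the letters of these windows and were not tested for binding.

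DSG3, the desmoglein of the lower layers of the epidermis, had the widest range of the desmosome genes, 3.80 on the log2 scale. The probe read 132.7 on control, 231.6, 141.0 and 115.6 on the LEMD1-, MIA- and MIA2-labelled arrays, and 1613 and 389.3 on the TANGO- and MATE2-labelled arrays. The last 2 values lay above all others, and the MIA- and MIA2-labelled arrays lay close to control. DSG3 was thus 12.2-fold above control on the TANGO-labelled array, a log2 ratio of 3.60 that ranked 21 from the highest of 26354 probes, and 2.93-fold above it on the MATE2-labelled array. Between these arrays the signal differed by 4.14-fold. Under the processing alternatives the log2 ratios ranged from 3.08 to 3.60 and from 1.20 to 1.56.

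DSC3, the desmocollin of the same layers, read 194.6 on control, 487.7, 161.0 and 412.2 on the LEMD1-, MIA- and MIA2-labelled arrays, and 1859 and 486.8 on the TANGO- and MATE2-labelled arrays. Only the MIA-labelled array was below control, and the LEMD1- and MATE2-labelled arrays had nearly the same signal. The log2 ratio was 3.26 on the TANGO-labelled array, which is 9.55-fold and ranked 31 from the highest. Its other ratios were 1.33, 1.08 and 1.32 on the LEMD1-, MIA2- and MATE2-labelled arrays, so that DSC3 passed 2-fold on 4 of 5 arrays, and -0.27 on the MIA-labelled array. The change on the MIA2-labelled array, 2.12-fold, dropped below 2-fold with normexp background correction at 0.91, without background correction at 0.87 and with 50 added to the signal at 0.92. With the median signal of the other 5 arrays in place of control, the log2 ratio was -0.24 there and 0.24 on the LEMD1- and MATE2-labelled arrays.

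DSC2, a desmocollin of all epithelial layers, was read by a pair of probes that differed in size. The probe GE88450 had a signal of 193.0 on control, 495.3, 171.4 and 313.3 on the LEMD1-, MIA- and MIA2-labelled arrays, and 1698 and 683.1 on the TANGO- and MATE2-labelled arrays. The probe GE80526 had 73.1 on control, 93.3, 69.8 and 55.8 on the former and 248.3 and 83.4 on the latter arrays. Both were highest on the TANGO-labelled array, at log2 ratios of 3.14 and 1.76, or 8.80-fold and 3.40-fold. On the LEMD1- and MATE2-labelled arrays only the first probe was changed, at 1.36 and 1.82, while the second was at 0.35 and 0.19. The log2 ratios of the probes differed by 1.01, 1.09, 1.37 and 1.63 on the LEMD1-, MIA2-, TANGO- and MATE2-labelled arrays. On the MIA2-labelled array they had opposite signs, 0.70 for GE88450 and -0.39 for GE80526, both within 2-fold. The size of the DSC2 change thus depends on the probe, and so does its direction on the MIA2-labelled array. Against the median of the other 5 arrays GE88450 was at 0.66 on the LEMD1-labelled array. The transcripts that each probe reads were not compared.

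DSG2, the most widely expressed desmoglein, did not follow its neighbours in the cluster. Its signal was 399.2 on control, 426.0, 335.4 and 213.7 on the LEMD1-, MIA- and MIA2-labelled arrays, and 337.9 and 245.5 on the TANGO- and MATE2-labelled arrays. No array was 2-fold away from control, and the lowest values were on the MIA2- and MATE2-labelled arrays, at log2 ratios of -0.90 and -0.70. On the TANGO-labelled array DSG2 had a log2 ratio of -0.24, where its neighbour DSG3 had 3.60. Taken by role, 4 of 5 cadherin probes were higher on the TANGO-labelled array, with a median of 3.14, and 3 of 5 on the MATE2-labelled array, with a median of 1.32. Of all probes, 4.58% and 5.05% were higher on these arrays. Of the 4 higher cadherin probes on the TANGO-labelled array, 2 read the same gene, DSC2. The cadherin medians on the LEMD1-, MIA- and MIA2-labelled arrays were 0.80, -0.17 and -0.20.

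**Figure D3:**
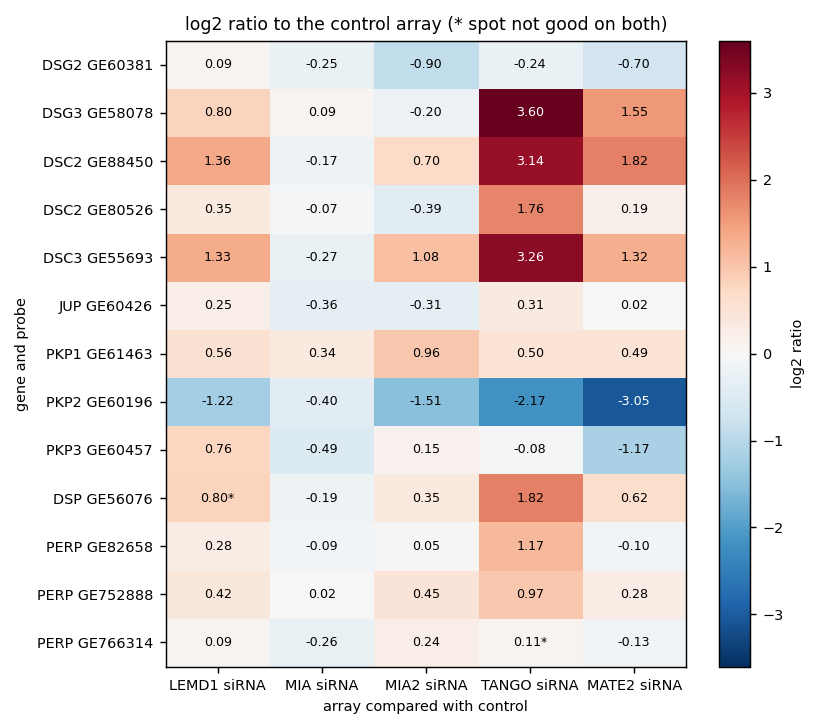
Log2 ratio to the control array of each desmosome probe (rows) on the 5 siRNA arrays (columns), coloured red above and blue below control, with an asterisk where a spot was not flagged good on both arrays. The cadherins DSG3, DSC2 and DSC3 are red on the TANGO- and MATE2-labelled arrays, and PKP2 is blue on all 5 arrays, down to -3.05.

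Among the armadillo proteins of the plaque, PKP2 was below control on all 5 arrays. Its signal was 967.6 on control, 414.9, 733.4 and 339.7 on the LEMD1-, MIA- and MIA2-labelled arrays, and 214.9 and 116.7 on the TANGO- and MATE2-labelled arrays. Control was the highest array and the MIA-labelled array the next, and the TANGO- and MATE2-labelled arrays were the lowest. PKP2 was 8.29-fold below control on the MATE2-labelled array, a log2 ratio of -3.05 that ranked 45 from the lowest of 26648 probes. It was 4.50-fold lower on the TANGO-labelled array, 2.85-fold on the MIA2-labelled array and 2.33-fold on the LEMD1-labelled array, and its log2 ratio was -0.40 on the MIA-labelled array. The platform table gives this probe to RAB7A, a small GTPase, as well as to PKP2, while the scanner file gives it a PKP2 transcript. The other good probes of RAB7A had log2 ratios of -0.07 and -0.37 on the TANGO-labelled array and -0.05 and -0.44 on the MATE2-labelled array, within 2-fold of control. With the median signal of the other 5 arrays in place of control, PKP2 was at 0.29 on the LEMD1-labelled array and within 2-fold on the MIA2- and TANGO-labelled arrays, at -0.29 and -0.95. Against the MIA-labelled array it was at -0.82 on the LEMD1-labelled array. The median comparator takes in the other siRNA arrays, while the reported PKP2 ratios all rest on the single control spot. Which of these moved the values was not tested.

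PKP3, a plakophilin found in most epithelial layers, read 576.8 on control, 974.8, 411.5 and 638.6 on the LEMD1-, MIA- and MIA2-labelled arrays, and 545.4 and 255.6 on the TANGO- and MATE2-labelled arrays. The LEMD1-labelled array was the highest and the MATE2-labelled array the lowest. PKP3 was 2.26-fold below control on the MATE2-labelled array, a log2 ratio of -1.17. It was at -0.98 without background correction and at -0.69 against the MIA-labelled array. On the TANGO-labelled array the log2 ratio was -0.08.

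PKP1, the plakophilin of stratified epithelium, read 164.4 on control and 207.9 to 320.2 on the siRNA arrays, with the highest value on the MIA2-labelled array. All 5 ratios were above control and under 2-fold, at log2 values of 0.34 to 0.96. JUP, whose product plakoglobin also joins adherens junctions, read 2821 on control, 3360, 2203 and 2278 on the LEMD1-, MIA- and MIA2-labelled arrays, and 3502 and 2865 on the TANGO- and MATE2-labelled arrays. Its range of 0.67 on the log2 scale was narrow beside that of DSG3, and its ratios ran from -0.36 to 0.31. The median of the 4 armadillo probes was 0.12 on the TANGO-labelled array and -0.58 on the MATE2-labelled array, where 2 of 4 were lower. Of all probes, 7.55% were lower on the MATE2-labelled array.

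DSP, the link to the keratin filaments, had a signal of 76.3 on control, 66.9 and 97.6 on the MIA- and MIA2-labelled arrays, and 269.4 and 117.1 on the TANGO- and MATE2-labelled arrays. On the LEMD1-labelled array it read 133.3 on a spot flagged as irregular, which was left out. The TANGO-labelled array stood above all others, 3.53-fold over control, a log2 ratio of 1.82 that ranged from 1.28 to 2.01 under the alternatives. On the MATE2-labelled array the log2 ratio was 0.62.

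PERP, a p53 target that is needed for stable desmosomes in stratified epithelium, was read by 3 probes. The probe GE82658 read 1157 on control, 1404, 1087 and 1198 on the LEMD1-, MIA- and MIA2-labelled arrays, and 2600 and 1079 on the TANGO- and MATE2-labelled arrays. It was 2.25-fold above control on the TANGO-labelled array and within 2-fold elsewhere. The probe GE752888 had a log2 ratio of 0.97 on that array, just under the threshold, against 1.17 for the first. The third probe, GE766314, had an irregular spot there, which was left out, and ratios of -0.26 to 0.24 on the other arrays. That spot read 144.8 against 134.0 on control, a log2 ratio of 0.11, unlike the other PERP probes. With each array scaled to its median the log2 ratio of GE82658 on the TANGO-labelled array was 0.87, under the threshold.

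**Figure D4:**
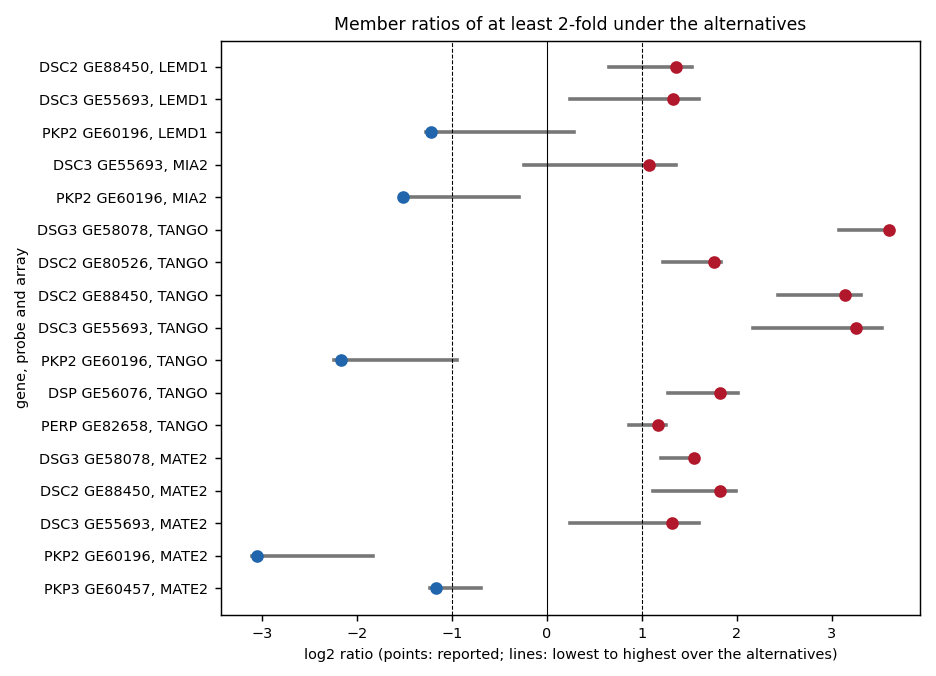
Log2 ratio to control (x axis) of the 17 desmosome ratios of at least 2-fold (y axis, gene, probe and array). Points are the reported values, red above and blue below control, grey lines span the lowest to the highest value over the processing alternatives, and dashed lines mark 2-fold; DSG3 on the TANGO-labelled array stays between 3.08 and 3.60, and only PKP2 on the LEMD1-labelled array and DSC3 on the MIA2-labelled array cross 0.

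Among other genes of the desmosome and the cornified layer, probes of DSG1 and PKP4 were changed. DSG1, the desmoglein of the upper layers, read 48.3 on control, 81.4, 70.4 and 67.8 on the LEMD1-, MIA- and MIA2-labelled arrays, and 122.7 and 124.3 on the TANGO- and MATE2-labelled arrays. Its log2 ratios on the last 2 arrays were 1.34 and 1.36. Both rest on a control signal close to the lowest good signal of the control array, 34.2. DSC1 had a good spot on the TANGO-labelled array alone, at 55.1, and DSG4 was near background on all arrays, so within the cluster only 5 genes could be compared. A probe of PKP4, an armadillo protein of several junctions, read 271.7 on control and 560.6 on the TANGO-labelled array, a log2 ratio of 1.04, and the other had 0.41. Of the 6 probes of this list that were good, 2 were higher on the TANGO-labelled array and 1 on the MATE2-labelled array, and none was changed on the other 3 arrays. Of all probes, 4.58% and 5.05% were higher on the TANGO- and MATE2-labelled arrays. The list medians were -0.21 to 0.32.

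The adherens junction, which also joins cells through cadherins, held 3 higher and 1 lower of 15 probes on the TANGO-labelled array, with a list median of 0.16. These are 20% and 6.67%, against 4.58% and 6.43% of all probes, so the share lower among good probes was close to that of all probes. The counts leave out CTNNAL1, an alpha-catenin relative, and NECTIN2, a nectin. These were good on control, at 414.8 and 72.8, and near background on the TANGO-labelled array, at 37 and 28.4. CDH1, E-cadherin, read 1135 on control and 3759 on that array, a log2 ratio of 1.73, and had 0.68 on the MATE2-labelled array. NECTIN1 and NECTIN4, nectins of the same junction, had log2 ratios of 1.58 and 1.74 on the TANGO-labelled array, although a second NECTIN1 probe had -0.06. CTNNA1, alpha-catenin, was lower, at -1.26 and -1.46 on the TANGO- and MATE2-labelled arrays. On the MATE2-labelled array none of 15 probes was higher and 3 were lower, among them CTNNAL1 at -2.37 and 1 of the probes of PLEKHA7 at -1.26. Of all probes, 5.05% were higher and 7.55% lower there. The LEMD1-labelled array had 2 higher of 16, the MIA2-labelled array 1 of 16 and the MIA-labelled array 0 of 17, and no good probe was lower on these. NECTIN2 was near background on the LEMD1- and MIA2-labelled arrays, at 35.2 and 30.4 against 72.8 on control, and was not counted there. Of all probes, 1.56%, 2.88% and 0.588% were higher on the LEMD1-, MIA2- and MIA-labelled arrays and 2.57%, 3.74% and 0.318% lower. The medians of the list on the arrays other than the TANGO-labelled array were -0.23 to 0.09.

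The keratins, to which desmoplakin binds, changed in both directions. On the TANGO-labelled array 3 of 11 keratin probes were higher and 5 lower, where 4.58% and 6.43% of all probes were. On the MATE2-labelled array 4 and 5 of 11 were, against 5.05% and 7.55% of all probes. KRT19 read 7883 on control, 15098, 7579 and 14792 on the LEMD1-, MIA- and MIA2-labelled arrays, and 68.4 and 107.8 on the TANGO- and MATE2-labelled arrays, log2 ratios of -6.85 and -6.19. The simple epithelial keratins KRT8 and KRT18 were also lower there, KRT8 at -2.72 and -2.73 and the KRT18 probes at -2.69 to -2.09. KRT5, the basal partner of KRT14, was higher on 4 arrays, at 3.25, 3.03, 1.63 and 1.08 on the LEMD1-, MIA2-, TANGO- and MATE2-labelled arrays. KRT14 itself was at 1.43 and 1.65 on the LEMD1- and MIA2-labelled arrays and at -4.12 on the TANGO-labelled array. KRT16, a keratin of activated epithelium, was at 3.00 and 4.39 on the TANGO- and MATE2-labelled arrays, KRT4 of the oral lining at 2.64 and 2.96, and KRT17 at 0.55 and 3.00. KRT13, the usual partner of KRT4, was saturated on both arrays and has only a bound there. The LEMD1- and MIA2-labelled arrays had 3 higher each and 2 and 3 lower, of 12, and the MIA-labelled array had none of 11 changed. Of all probes, 1.56%, 2.88% and 0.588% were higher on these arrays and 2.57%, 3.74% and 0.318% lower. The keratin medians were 0.40, -0.06, 0.57, -0.70 and -0.93 in the order LEMD1, MIA, MIA2, TANGO and MATE2.

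Genes that regulate desmosomes were read in the same way, and their counts are given below beside the share of all probes. GRHL3, a Grainyhead transcription factor of the epidermal barrier, read 149.5 on control, 404.9, 99.5 and 216.8 on the LEMD1-, MIA- and MIA2-labelled arrays, and 912.4 and 820.0 on the TANGO- and MATE2-labelled arrays, log2 ratios of 2.61 and 2.46. Its relative GRHL1 was at 1.73 and 1.43 by its probes on the TANGO-labelled array, and KLF4, a factor of differentiation, at 1.45 there and 1.27 on the MATE2-labelled array, with its other probe at 0.71 and 0.94. TP63, which encodes a main regulator of stratified epithelium, stayed within 2-fold, at -0.49 to 0.89. EGFR, the EGF receptor, was at -1.37 and -1.19 by the probe GE59632 on the TANGO- and MATE2-labelled arrays, at 0.06 and -1.01 by another and at -0.17 and 0.04 by the third. ERBIN, which binds the related receptor ERBB2, was at -1.44 and -2.27, and 1 of the 3 probes of ATP2C1, a calcium pump of the Golgi, at -1.17 and -1.05. GRHL2 was at 1.04 on the TANGO-labelled array. In all, 5 of 26 probes of this list were higher (19.2%) and 4 lower (15.4%) on the TANGO-labelled array, against 4.58% and 6.43% of all probes. On the MATE2-labelled array 2 of 26 were higher (7.69%) and 4 lower (15.4%), against 5.05% and 7.55% of all probes. On the LEMD1-labelled array 1 of 26 was higher (3.85%), GRHL3 at 1.44, against 1.56% of all probes. On the MIA2-labelled array 1 of 26 was lower, ADAM10 at -1.01, which is 3.85% against 3.74% of all probes. None of 25 was changed on the MIA-labelled array, where 0.588% of all probes were higher and 0.318% lower. The medians were -0.22 to 0.05.

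**Figure D5:**
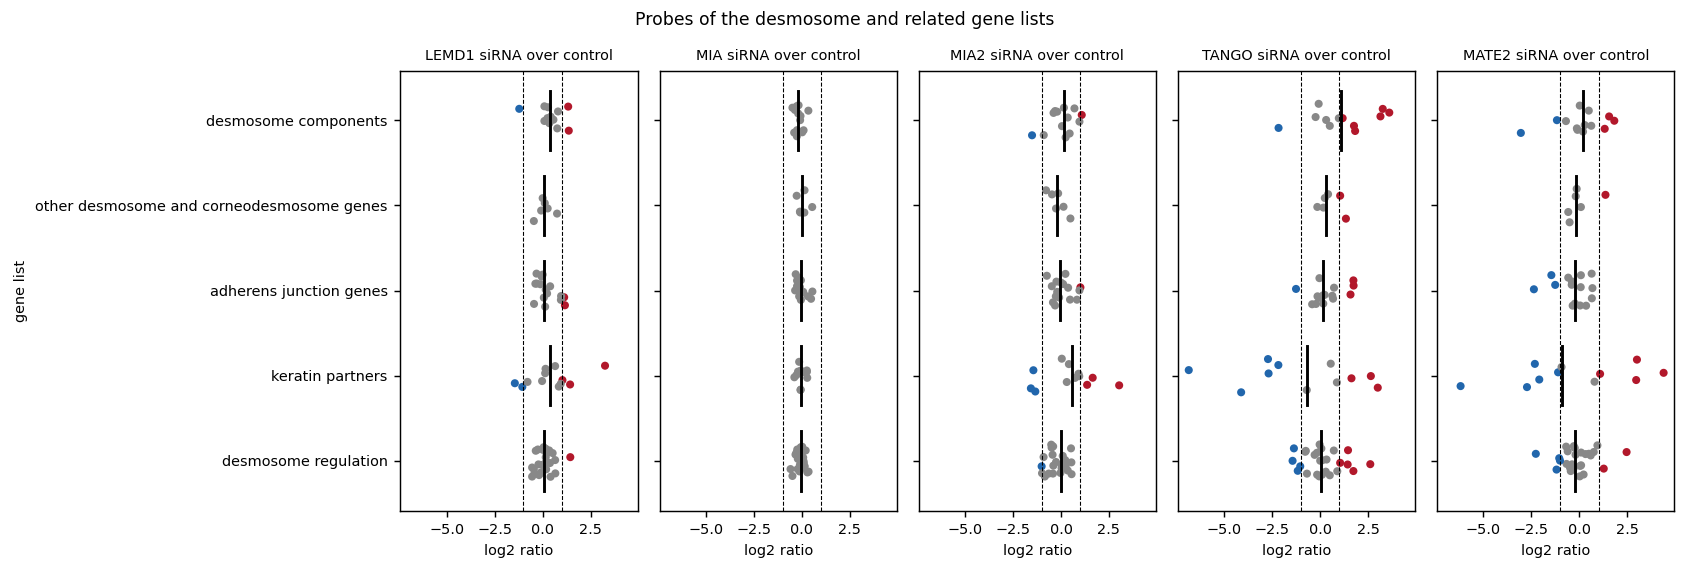
Log2 ratio to control (x axis) of every good probe of the desmosome genes and of 4 related gene lists (y axis), 1 panel per siRNA array. Each point is a probe, red or blue where it was 2-fold higher or lower, a black bar gives the median of a list, and the dashed lines stand at 2-fold; on the TANGO-labelled array the desmosome median is 1.07 and the other medians are -0.70 to 0.32.

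Markers of squamous epithelium were present on every array, with 8 of 9 genes good throughout and a summed signal of 14422 to 38082. Of the fibroblast markers, 3 or 4 of 6 genes had a good probe, with summed signals of 514.3 to 942.6, of which the TANGO- and MATE2-labelled arrays had 595.3 and 942.6 and control 514.3. Endothelial markers were represented by PECAM1, with VWF on the TANGO-labelled array, at summed signals of 450.5 to 646.3, and the defining CDH5 and KDR were near background on all arrays. Of 4 leukocyte genes with a probe, 2 or 3 were good, at 169.7 to 296.4 in sum, and PTPRC was near background. Melanocyte markers summed to 122.2 to 294.6, with the highest value on the control array. Their part in the desmosome ratios was not tested.

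The genes whose pattern over the 6 arrays was most like that of DSG3, among 13673 other named probes good on all arrays, were JAG1, ID1 and PGM2L1. The measure was the root mean square difference of the log2 signals after centring each gene on its own mean, over 6 arrays, and it was 0.31, 0.33 and 0.38. JAG1, a Notch ligand, read 151.2 on control and 1206 and 387.4 on the TANGO- and MATE2-labelled arrays, ID1, an inhibitor of DNA binding by basic helix-loop-helix factors, 107.6, 706.6 and 253.7, and PGM2L1 189.3, 1513 and 498.4. Among the desmosome probes, DSC2 GE88450 was the most like DSG3, at 0.47, followed by DSC3 at 0.59 and DSC2 GE80526 at 0.69. PKP2 was the least like it, at 2.12. The likeness rests on the TANGO- and MATE2-labelled arrays, on which these genes have most of their range.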

How the data were processed

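RNA from the 6 HSC3 cultures was measured on single-colour arrays. The deposited scanner values are spot intensities, each the spot mean less its local background. Per the file headers, the export came from CodeLink Expression Analysis (version 5.0.0.31312). The authors also deposited a quantile-normalized table of linear signal with a lowest value of 0.001 and a median of 51.1 in each column, which 100.0% of values of an own normalization matched within 1% plus 1. It served as an alternative.

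From the scanner intensities, 320 masked gene probes were left out, the other 53103 were quantile normalized over 6 arrays with Python 3.11.15 and numpy 2.4.6, floored at 1 and set on a log2 scale. Probes were named by scanner accession (15119) or, failing that, by the single gene of the platform table (9446). All good probes of each gene were kept. The named genes were all desmosome genes, up to 6 changed genes of each related list, the siRNA targets and the 3 genes most like the desmosome gene of the widest range; other genes named were chosen after their values were seen. Members and lists were chosen with earlier results of these data known. Normexp was run with limma 3.58.1. Other alternatives were median scaling, no background correction, 50 added to the signal, other flag rules, other comparators, normalization without the TANGO- and MATE2-labelled arrays, and 1 value per gene. In the normalization without them, the TANGO- and MATE2-labelled arrays were each normalized with control alone.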

Additional observations from a re-analysis of the deposited data

How the results depend on the processing

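No paired analysis was possible because each condition has 1 array and all arrays share a single replicate number. Of 17 desmosome ratios of at least 2-fold, 15 kept their direction under every alternative run and 8 stayed past 2-fold in all. Against the median of the other 5 arrays, no desmosome probe was higher (0) or lower (0) on the LEMD1-labelled array, where PKP2 was at 0.29, 1 was higher and 2 lower on the MIA-labelled array, 0 were higher on the MIA2-labelled array, where DSC3 was at -0.24, and 0 were lower on the TANGO-labelled array. That comparator takes in the other siRNA arrays, while the reported ratios rest on the single control array. Which of these moved the values was not tested. With the MIA-labelled array as comparator 3 were higher, PKP3 at 1.24 among them, and 0 lower on the LEMD1-labelled array and 1 was lower on the MATE2-labelled array, and it gives no value for its own array. With good probes averaged per gene 1 was higher on the LEMD1-labelled array. On the MIA2-labelled array 2 were higher with median scaling and 0 with normexp, without background correction or with 50 added, and on the MATE2-labelled array 1 was lower without background correction. The cause was not tested for these background settings. The other 178 values of counts and medians moved by at most 1.5 times or by less than the spread of all probes. That spread, 0.49 and 0.52 on the MIA2- and MATE2-labelled arrays, is wider than the desmosome medians there, 0.15 and 0.19. Those medians changed sign within it, from -0.26 to 0.43 and from -0.01 to 0.26 over the alternatives. Among all probes on the TANGO-labelled array, 1207 were higher and 1694 lower, against 622 and 918 with normexp, 573 and 826 without background correction, 645 and 947 with 50 added, and 6699 and 7255 without a filter on flags. Median scaling moved the share of higher among changed probes on the MIA2-labelled array from 43.5% to 56.5%. Probes near background have no ratio, and a single array per condition limits the precision.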
